A study of Mus musculus with 41 samples.

Results

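The 85 cytosolic ribosomal protein genes of mouse embryonic stem (ES) cells were followed through 12 groups of cell line and time. They were chosen by symbol: 393 symbols of the annotation started as ribosomal protein names do (Rpl or Rps with a digit, Rplp0 to Rplp2, Rpsa and Fau). Of these, 296 were pseudogenes and 10 were Rps6k kinases, and Rpl10l was left out by the rule, which left 86 protein-coding genes. A level of at least 1 CPM (counts scaled to a common library size) in at least 3 libraries was required, and 85 of the 86 passed, of 55487 genes in the deposited table and 16967 that passed the same filter. Rpl24 did not pass, with at most 1.12 CPM (6 reads) in a library, at least 1 CPM in 2 libraries and 72 reads over all libraries. The members nearest to the limit were Rpl3l, a muscle relative of Rpl3, at 1 CPM or more in 7 libraries, Rpl39l in 24 and Rpl29 in 29, and the next, Rpl7, in all 41. Of the members, 77 encode core proteins (45 of the large subunit, stalk included, and 32 of the small subunit). The other 8 are relatives that carry a ribosomal protein name: Rpl22l1, Rpl36al, Rpl39l, Rpl3l, Rpl7l1, Rps27l, Rps27rt and the binding protein Rps19bp1.

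The RNA came from 41 libraries of the E14 ES cell line, in which 3′ mRNA tags were counted. The lines KO2 (15 libraries) and KO3 (11) are labelled as genetically depleted for Esrrb, an orphan nuclear receptor of naive pluripotency, and WT (15) as Esrrb wild type. Each line was sampled in 2iL, and at 1, 3 and 5 days in AloXR. 2iL is N2B27 medium with the inhibitors CHIR99021 and PD0325901 and with LIF, which hold cells in the naive state. AloXR is N2B27 with activin A, XAV and BMS439, applied after 1 day in N2B27 alone on fibronectin, and is used to move cells to formative pluripotency. There were 3 libraries per line in 2iL and 4 at each AloXR time, except 2 in KO3 at day 3 and 2 at day 5. There was 1 WT line and 2 depleted lines, and the labels do not say whether the libraries of a group were separate cultures, so that the spread between them may be technical and an effect of Esrrb loss cannot be told apart from other differences between the lines.

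The libraries held 3424064 to 5736053 reads assigned to genes (median 4581394), so that a count of 0 allows up to 0.523 to 0.876 CPM (3 reads, counting error only). Esrrb itself averaged 54.6 CPM in KO2, 135 CPM in KO3 and 375 CPM in WT in 2iL. At day 1 it averaged 3.46 CPM in KO2, 33.8 CPM in KO3 and 15.1 CPM in WT, and at day 3 1.98 CPM in KO2, 5.52 CPM in KO3 and 1.597 CPM in WT, so the libraries labelled KO3 held more Esrrb tags than WT at both times. A 3′ tag does not show whether the deleted part is missing, and the lines are called by their labels throughout. All 8 ES cell markers (Pou5f1, Sox2, Nanog, Zfp42, Dppa5a, Tdgf1, Utf1 and Lin28a) were detected in every line in 2iL, where they summed to 1935 to 2260 CPM in KO2, 1720 to 2306 CPM in KO3 and 2307 to 2491 CPM in WT. In 2iL, library 3 of each line had the lowest share of ribosomal protein reads of its line, and the comparisons with 2iL are therefore also given without those libraries. Because these libraries were picked by that share, leaving them out raises the 2iL level of the members and favours falls from 2iL.

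The cytosolic ribosome joins a small subunit, which reads the messenger RNA, to a large subunit, which forms the peptide bond and holds the exit tunnel. Its proteins are made in similar amounts and assembled on ribosomal RNA in the nucleolus by assembly factors that do not stay on the finished particle. Their mRNAs are abundant in dividing cells, and many begin with a C and a run of pyrimidines, the terminal oligopyrimidine (TOP) tract, through which mTORC1 signalling controls their translation and stability. ES cells are known for rapid division and for a translation rate that rises when they leave the naive state.

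To show what these genes carry at their start, the promoter table of RefSeq (GRCm38.p6) was searched, which held 65 of the 85 members, with 250 bases before and 50 after each start. A TOP tract, counted as a C at the annotated start followed by at least 4 bases of C or T on the transcribed strand, was present in 15 members (23.1%), against 3.01% of the 27025 genes in the table. Such a run began within 10 bases on either side of the start in 40 members (61.5%), against 34.4% of all genes. The letters CCGGAAG, an ETS core as bound by GABP, occurred on either strand in 26 members (40.0%), against 9.93% of all genes, and GCCATNT, the YY1 core, in 17 (26.2%) against 17.1%. AAGGTCA, the core of the Esrrb motif, occurred in 3 members (4.62%), against 5.38% of all genes. None of these 3 words contains another, and a match in a window describes letters only. The starts of 8 members on which the results below turn are shown with 15 bases before the annotated start and 15 from it on. Capitals mark the run of a C with at least 4 further pyrimidines nearest to the start, and members with no such run within 10 bases are all in lower case. Fau and Rps6 begin with the tract, Rpl12 and Rpl22l1 have it just inside the transcript, that of Rpl39 ends on the annotated start base and that of Rpl39l lies just before the start, and Rpl9 and Rplp0 have none in this window.
Fau, chr19:6057932-6057961, plus strand: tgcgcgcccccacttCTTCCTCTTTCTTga
Rps6, chr4:86857353-86857382, minus strand: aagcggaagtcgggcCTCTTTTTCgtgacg
Rpl12, chr2:32961697-32961726, plus strand: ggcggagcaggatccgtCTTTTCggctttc
Rpl22l1, chr3:28805493-28805522, plus strand: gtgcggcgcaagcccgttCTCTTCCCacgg
Rpl39, chrX:37085208-37085237, minus strand: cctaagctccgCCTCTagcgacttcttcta
Rpl39l, chr16:10170213-10170242, plus strand: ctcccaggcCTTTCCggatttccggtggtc
Rpl9, chr5:65391417-65391446, minus strand: acgcagggccctgacggattacaagaacgt
Rplp0, chr5:115559452-115559481, plus strand: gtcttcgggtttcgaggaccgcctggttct

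The 85 genes together took 8.36% to 15.2% of the reads of a library, with a median of 11.2%. In 2iL their share was 15.2%, 12.3% and 11.1% in KO2, 14.01%, 13.6% and 10.7% in KO3, and 13.7%, 12.7% and 11.2% in WT, and the lines overlapped. At day 1 the mean share was 11.8% ± 0.971 in KO2, 10.5% ± 0.264 in KO3 and 11.2% ± 0.795 in WT (SD, n = 4 each). At day 3 it was 10.8%, 11.3%, 10.9% and 10.5% in KO2, 9.82% and 10.3% in KO3, and 11.5%, 12.4%, 11.8% and 11.3% in WT. Both KO3 libraries lay below every WT library at day 3, while KO2 overlapped WT. At day 5 the share was 11.9%, 10.96%, 10.8% and 10.1% in KO2, 8.36% and 9.16% in KO3, and 11.2%, 11.8%, 11.9% and 11.9% in WT. The 2 KO3 libraries at day 5 had the lowest shares of all 41 libraries, and 3 of 4 KO2 libraries lay below every WT library. Mitochondrially encoded transcripts were higher than in WT at day 5, with means of 2.83% of reads in KO2, 3.37% in KO3 and 2.34% in WT. Their means lay above WT at the earlier times too. They were 4.11% in KO2, 3.59% in KO3 and 3.19% in WT in 2iL, and 3.81%, 4.299% and 3.099% at day 1. At day 3 they were 3.43%, 3.89% and 3.204%, and libraries of both lines overlapped WT in 2iL and at day 3. The mean ribosomal protein share was not below WT in either line in 2iL, nor in KO2 at day 1. The part of mitochondrial transcripts in the result was not tested. In bulk RNA, fewer cells of a type and less RNA per cell cannot be told apart, and a share of reads does not show the amount of RNA per cell.

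**Figure D1:**
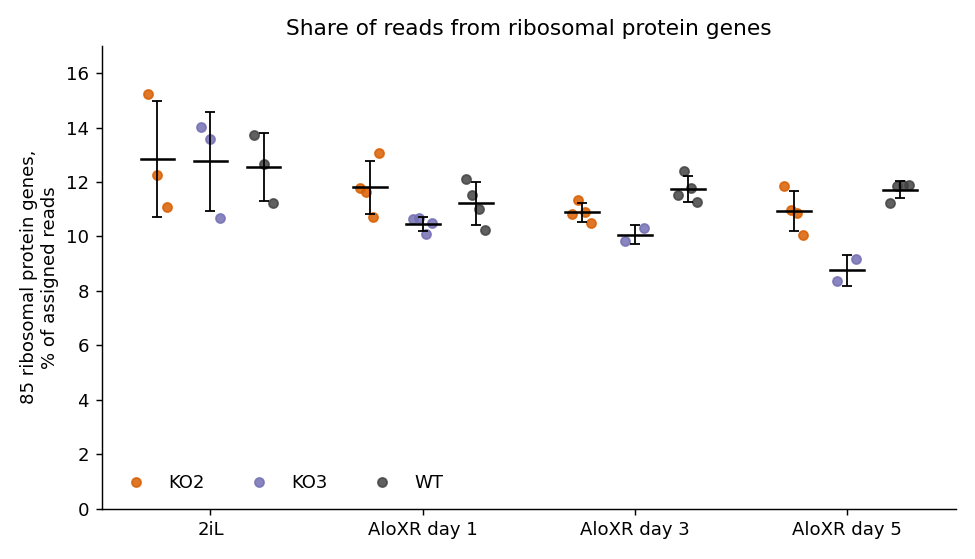
Share of assigned reads from the 85 ribosomal protein genes (percent, vertical axis) in each library (points) by line and time; bars give the mean and whiskers the SD. At AloXR day 5 KO2 stands at 10.1% to 11.9%, KO3 at 8.36% and 9.16% and WT at 11.2% to 11.9%.

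Members differed widely in their number of tags. Rps12, a small subunit protein, had the highest mean over all libraries with 6148 CPM, followed by Rpl37 (4196 CPM), Rpl4 (4077 CPM), Rpl23a (3757 CPM) and Rps20 (3588 CPM), on a scale of tags that is not divided by transcript length. Processed pseudogenes bear on these levels, since 57 members had pseudogene rows of the same symbol (287 rows), which together took 0.560% to 1.35% of reads. In 4 members these rows held more than the gene itself: Rps10 (302 against 33.2 CPM), Rps13 (1654 against 560 CPM), Rpl10a (176 against 118 CPM) and Rpl10 (264.5 against 260.7 CPM). How reads that match several copies were assigned is not given in the sources used here, so the levels of these 4, and of Rps6 (60.1 CPM in pseudogene rows against 66.4 CPM), are uncertain.

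In 2iL the ribosomal protein genes of the depleted lines were close to those of WT. The median log2 change over the 85 members, on the log2(CPM + 1) scale, was 0.00, against 0.04 over all genes tested, and 4 members were higher and 2 lower at an adjusted p under 0.05 (limma, Benjamini-Hochberg over 16967 genes). The background was 11.2% of all genes higher and 10.4% lower. DESeq2 gave 4 higher and 4 lower and TMM scaling 4 and 2, and without WT 2iL library 1 only 3 members were called in all. Rplp0, the protein that carries the large subunit stalk where elongation factors bind, had 2350, 1952 and 1849 CPM in KO2, 2288, 1987 and 1752 CPM in KO3, and 1519, 1505 and 1483 CPM in WT. Every depleted library lay above every WT library, and the log2 change was 0.43 (SE 0.08, adjusted p = 7.5e-05, limma). Rps12 had 8793, 7174 and 6355 CPM in KO2, 7320, 7706 and 5881 CPM in KO3, and 5891, 5480 and 5286 CPM in WT. Only KO3 library 3 reached into the WT range, and the log2 change was 0.37 (SE 0.08, adjusted p = 0.00099, limma). Rpl13a rose by 0.29 and the stalk protein Rplp1 by 0.28. The largest fall was that of Rpl39l (-1.79), described with its parent gene below, and Rps19bp1, which encodes a nucleolar protein that binds the small subunit protein Rps19 and is no subunit itself, fell by 0.34.

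At day 1 the members still lay near WT, with a median of -0.04 against 0.02 over all genes. 1 member was higher and 5 were lower, over a background of 9.75% higher and 10.1% lower. Rpl39l fell most (-2.14, SE 0.20, adjusted p = 1.53e-11, limma), followed by Rpl11 (-0.32), Rps21, Rpl18 and Rpl7 (-0.21 each), while Rpl13a was higher by 0.25. Rpl11 joins the 5S ribosomal RNA and, when free, binds the p53 regulator Mdm2. These few calls turned with the setting: quantile normalization gave 5 higher and 4 lower, centring each chromosome gave 2 and 2, and 3 members in all were called without WT day 1 library 2 or without library 3.

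At day 3 most members lay below WT, and 25 of the 85 were called lower and 1 higher. The background was 11.2% of all genes lower and 14.6% higher, the median was -0.17 over the members and 0.03 over all genes, and 10 members lay above 0. Rpl15, a core protein of the large subunit, had 144, 95.6, 153 and 113 CPM in KO2, 116 and 119 CPM in KO3, and 200.3, 225, 173 and 185 CPM in WT. Every depleted library was below every WT library, and the log2 change was -0.68 (SE 0.12, adjusted p = 1.87e-05, limma). Rpl17, which lines the exit tunnel, had 1145, 692, 1058 and 715 CPM in KO2, 917 and 942 CPM in KO3, and 1194, 1461, 1427 and 1360 CPM in WT, again with no overlap (-0.58, SE 0.13, adjusted p = 0.00099, limma). Rps6, the substrate of S6 kinase in the small subunit, had 58.2, 17.7, 54.8 and 40.7 CPM in KO2, 65.2 and 63.3 CPM in KO3, and 71.4, 91.9, 74.7 and 63.9 CPM in WT (-0.57, SE 0.21, adjusted p = 0.047, limma). For Rps6, 1 of the KO3 libraries lay above the lowest WT library, and KO2 library 2 stood lowest. Rpl11 (-0.49), Rpl39 (-0.47), Rpl12 (-0.44), Rpl18 (-0.41), Rpl36al (-0.62) and Rpl22l1 (-0.28) were lower as well. In 14 members every depleted library was below every WT library, and in none above, against 8.23% and 8.42% of all genes.

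At day 5 the fall covered both subunits: 50 of the 85 members (58.8%) were called lower and 1 higher, over a background of 17.4% of all genes lower and 14% higher. The median log2 change was -0.29, a fold of 0.821, against 0.00 over all genes, and 8 members lay above 0. The largest called fall was -0.62 (Rpl12), and 4 of the 50 passed 1.5-fold as well and no higher member did, against 11.7% of all genes lower and 8.89% higher by that rule. Of the 45 core genes of the large subunit 29 were lower and none higher (median -0.28), and of the 32 of the small subunit 20 were lower and none higher (median -0.30). Rpl12 was the 1 of 4 stalk genes called, and of the 7 relatives other than Rps19bp1 1, Rpl22l1, was lower. With TMM scaling 32 members were lower and 1 higher, with DESeq2 31 and 2, and with edgeR 31 and 1, and leaving out single libraries gave 36 to 57 calls in all.

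Rpl12, which sits at the base of the stalk, had 1797, 1682, 1573 and 1461 CPM in KO2, 1314 and 1417 CPM in KO3, and 2124, 2268, 2378 and 2406 CPM in WT at day 5. The groups did not overlap, and the log2 change was -0.62 (SE 0.11, adjusted p = 1.64e-05, limma). Rpl9, which lies next to the stalk base, had 1538, 1263, 1252 and 1101 CPM in KO2, 850.2 and 941 CPM in KO3, and 1534, 1643, 1679 and 1661 CPM in WT. Of the depleted libraries only KO2 library 1 reached the WT range, and the change was -0.61 (SE 0.09, adjusted p = 9.87e-07, limma). Rpl17 had 1020, 1114, 1094 and 1045 CPM in KO2, 785 and 777 CPM in KO3, and 1325, 1375, 1447 and 1476 CPM in WT, with no overlap (-0.62, SE 0.13, adjusted p = 0.00043, limma). Rpl11 had 332, 325, 341 and 287 CPM in KO2, 269 and 343 CPM in KO3, and 445, 431, 479 and 460.0 CPM in WT (-0.54, SE 0.10, adjusted p = 2.4e-05, limma), again without overlap. Its partner in the 5S particle, Rpl5, was not called (-0.17, adjusted p = 0.225, limma).

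Among the small subunit genes, Fau, whose product is a ubiquitin-like protein fused to a ribosomal protein, had 724, 693, 619 and 557 CPM in KO2, 469 and 537 CPM in KO3, and 714, 782, 791 and 831 CPM in WT at day 5. Only KO2 library 1 reached the lowest WT library, and the log2 change was -0.45 (SE 0.08, adjusted p = 5.41e-05, limma). Rps21 (-0.46), Rps2 and Rps3, which lie at the mRNA entry channel (-0.44 each), and Rpsa (-0.27, SE 0.10, adjusted p = 0.035, limma) were lower too. Rpsa, also known as a laminin receptor, had 1194, 1107, 1083 and 985 CPM in KO2, 811 and 873 CPM in KO3, and 1141, 1220, 1134 and 1119 CPM in WT, so that KO2 overlapped WT and KO3 did not. Rps6 missed the threshold (-0.53, adjusted p = 0.0581, limma), as did Rpl10, a protein added late near the peptidyl transferase centre (-0.11, adjusted p = 0.416, limma), and the stalk protein Rplp0 (-0.08, adjusted p = 0.458, limma). Rps27a, which like Fau is made as a fusion, in its case with ubiquitin, was not called either (-0.16, adjusted p = 0.251, limma), nor was Rps12 (0.01, adjusted p = 0.971, limma). The single member called higher, Rps19bp1, had 117, 124, 140.3 and 141 CPM in KO2, 128 and 111 CPM in KO3, and 90.1, 105, 83.4 and 92.5 CPM in WT (0.42, SE 0.10, adjusted p = 0.00146, limma), with no overlap. In 25 members every depleted library was below every WT library and in 1 above, against 11.3% and 6.98% of all genes. The 14 core genes with a TOP tract at the annotated start had a median of -0.37 with 10 called lower, and the 43 without it -0.28 with 27 called lower, a difference that was not tested.

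The fall at day 5 lay mainly in KO3, while KO2 stayed nearer to the background. KO3 alone had 57 members (67.1%) lower and 1 higher than WT, over a background of 15.8% lower and 15.6% higher. Its median was -0.45, against 0.00 over all genes. KO2 alone had 18 members (21.2%) lower and 3 higher, over 14.7% lower and 9.9% higher. The KO2 median was -0.10, against -0.04 over all genes. In KO3 30 large subunit core genes and 23 of the small subunit were lower (median -0.45 each), and in KO2 12 and 5 (medians -0.10 and -0.14). Both KO3 libraries lay below every WT library in 72 of the 85 members, against 26.1% of all genes, and all 4 KO2 libraries in 25, against 15.8%. In KO3 Rpl36al (-1.02), Rpl22l1 (-0.95), Rpl9 (-0.86) and Rpl17 (-0.85) fell most. The largest called falls in KO2 were those of Rpl11 and Rpl12 (-0.50 each), Rps23 (-0.47) and Rpl28 (-0.42), and its called rises those of Rps19bp1 (0.49), the assembly-linked relative Rpl7l1 (0.28) and Rplp0 (0.21). Rps6 was at -0.52 in KO2 and was not called (adjusted p = 0.0986, limma). At day 3 KO3 had 30 lower and 1 higher (median -0.23), over a background of 8.8% lower and 14.5% higher, and KO2 19 lower and none higher (median -0.08), over 10.6% lower and 10.4% higher. The KO2 count of 0 came from limma, with 1 member higher at an unadjusted p under 0.05. At day 1 KO3 had 14 lower and 1 higher (median -0.14, background 11.3% and 11.9%), and KO2 3 lower and 4 higher (median 0.06, background 10.2% and 9.16%). In 2iL KO3 had 4 lower and 5 higher (background 8.72% and 7.61%), and KO2 1 lower and 3 higher (9.94% and 12.3%).

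**Figure D2:**
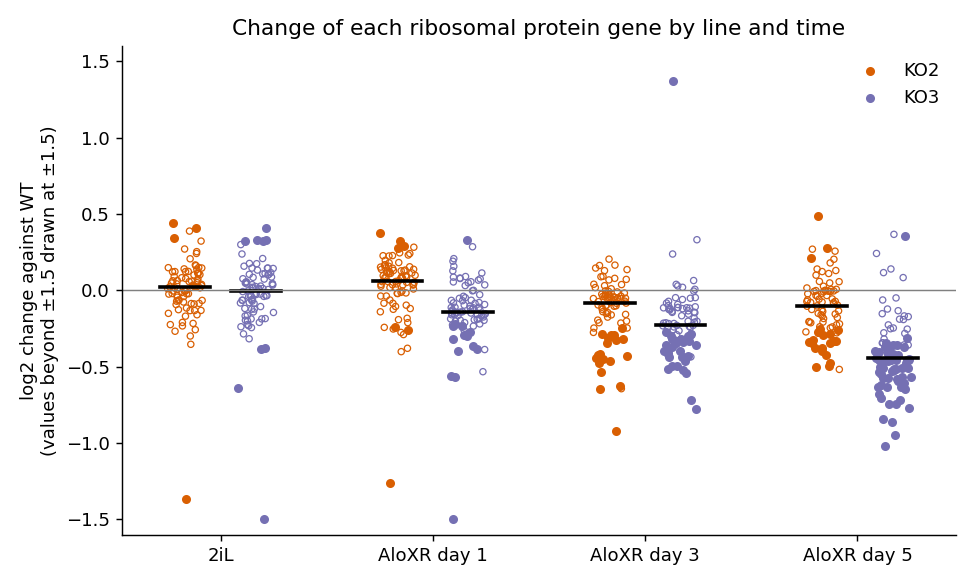
Log2 change of each of the 85 members against WT (vertical axis) at each time, in KO2 and KO3; filled points are called at an adjusted p under 0.05 (limma), open points are not, and the black bar is the median. The medians at day 5 are -0.10 in KO2 and -0.45 in KO3, and Rpl39l lies outside the drawn range in KO3 in 2iL and at day 1.

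The difference between the lines was tested directly. KO3 was lower than KO2 in 37 members and higher in none at day 5 (median -0.31, against 0.05 over all genes), over a background of 7.26% lower and 10.7% higher. The count of 0 came from limma with 0 members higher at an unadjusted p under 0.05, and edgeR and DESeq2 also called 0. Without KO3 library 1, which leaves 1 KO3 library that is assumed to vary like the other groups, 11 members were called in all. Rplp0 had 1301 and 1346 CPM in KO3 and 2037, 1892, 2067 and 1953 CPM in KO2, with WT between them at 1665 to 1737 CPM (KO3 against KO2 -0.59, SE 0.10, adjusted p = 3.36e-05, limma). Rps27l, a relative of Rps27 that responds to p53, had 561 and 561 CPM in KO3 and 720, 839, 956 and 915 CPM in KO2 (-0.60, SE 0.12, adjusted p = 0.0004, limma). Rpl22l1 (-0.70), Rpl36 (-0.61), Rps10 (-0.60) and Rpl36al (-1.07) were also lower in KO3 than in KO2.

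Earlier, KO3 was lower than KO2 in 25 members and higher in 1 at day 1 (median -0.19), over a background of 11.1% lower and 12.1% higher, and 14 were called in all without KO2 day 1 library 4. Quantile normalization gave 14 lower and 4 higher. At day 1 Rpl5 was lower in KO3 (log2 change -0.52, SE 0.11, adjusted p = 0.00059, limma), with 478, 483, 496 and 526 CPM in KO3 and 711, 645, 604 and 910.3 CPM in KO2. No KO3 library reached the KO2 range for Rpl5. At day 3 KO3 was lower in 9 members and higher in 1 (median -0.12), over 3.56% lower and 6.66% higher, and these calls rested on both KO3 libraries, since 1 was called without library 1 and 0 without library 2. Quantile normalization gave 6 lower and 4 higher at day 3, and centring each chromosome 2 lower and 1 higher. In 2iL 3 were lower in KO3 (Rpl39l, Rpl15 and Rpl21) and 2 higher, among them Rpl13, over 5.73% lower and 3.42% higher, and leaving out a single library gave 2 to 8 calls. Leaving out KO2 library 2, KO2 library 3 or KO3 library 2 gave 3 calls, KO3 library 1 gave 2 and KO3 library 3 gave 8.

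The median change against WT of the genes of some chromosomes lay away from 0 in the depleted lines, and some members lie on these chromosomes. Where along a chromosome the genes lie was not examined. At day 5 the median log2 shift against WT, over other genes of at least 10 CPM, was below -0.2 in KO2 on chromosomes 2 (-0.26), 4 (-0.27), 13 (-0.27) and 14 (-0.44). In KO3 it was below -0.2 on chromosome 14 (-0.27) and above 0.2 on chromosomes 6 (0.29) and 8 (0.46). In KO2, the 12 members on the 4 chromosomes named for that line had a median of -0.35 with 7 called lower, and the other 73 a median of -0.08 with 11 lower and 3 higher. Among the 12 were Rpl11, Rpl22, Rps20 and Rps6 on chromosome 4, Rpl12, Rps21, Rpl7a and Rpl35 on chromosome 2, Rps23 on chromosome 13 and Rpl15 on chromosome 14. After each chromosome was centred on its own shift, 7 members of KO2 were lower and 3 higher than WT at day 5, against 18 and 3 before. In KO3, 80 members lay on other chromosomes, with a median of -0.45 and 55 lower and 1 higher, and after centring 50 of the 85 were lower and 1 higher (median -0.36). The share of all genes called after centring is not given here, so the centred counts of both lines have no background beside them. Rpl13, higher in KO3 than in KO2 in 2iL, lies on chromosome 8. Its difference at day 1 (0.35) became -0.0495 after centring (adjusted p = 0.775, limma).

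**Figure D3:**
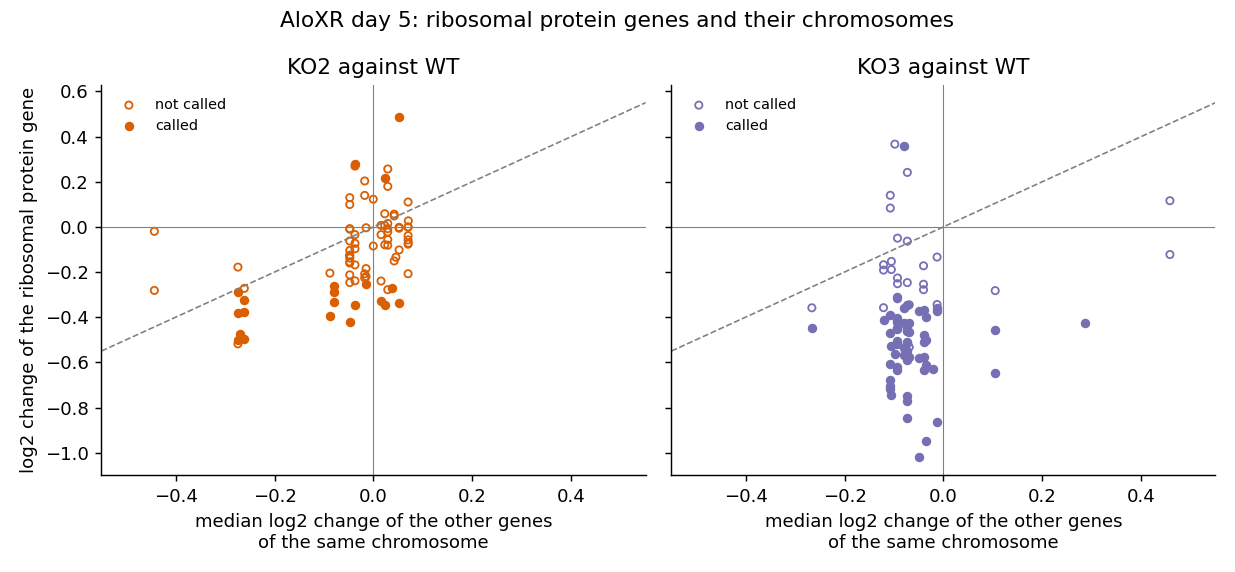
Log2 change of each member against WT at AloXR day 5 (vertical axis) against the median log2 change of the other genes on its chromosome (horizontal axis), for KO2 (left) and KO3 (right); filled points are called at an adjusted p under 0.05 and the dashed line marks equal change. In KO2 the 12 members on chromosomes 2, 4, 13 and 14 (median -0.35) lie near the line, and in KO3 most members lie below it.

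Over time, 27 of the 85 members were called in WT against 2iL at day 1, and 21 at day 3 and at day 5. At day 1, 8 members were higher and 19 lower than in 2iL (median -0.13, against 0.03 over all genes), over a background of 23.5% higher and 22.7% lower. At day 3, 8 were higher and 13 lower (median -0.07; 26.8% and 24.4%), and at day 5 again 8 and 13 (median -0.06; 28% and 20.2%). Rps20, a protein of the small subunit head, fell most in WT at day 1 among the abundant members, with 3216, 3132, 3118 and 2869.8 CPM at day 1 and 5825, 5727 and 4337 CPM in 2iL (-0.77, SE 0.13, adjusted p = 4.47e-06, limma). Rpl32 (-0.53) and Rpl13 (-0.50) fell too. Rpl41, which encodes the smallest ribosomal protein, rose in WT to 801, 954, 927 and 888 CPM at day 5, against 545, 486 and 628 CPM in 2iL (0.70, SE 0.13, adjusted p = 9.74e-06, limma), with no overlap. Rps27 (0.34), Rpl10 (0.34), Rpl11 (0.31), Rps27l (0.30) and Fau (0.29) were higher at day 5 as well. The Rpl10 rise at day 1 (0.37) turned to -0.15 when its pseudogene rows were added (adjusted p = 0.415, limma).

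The balance of rises and falls in WT depended on the scaling and the tool. At day 5 TMM scaling and DESeq2 gave 1 higher and 28 lower, and edgeR 1 and 26, with DESeq2 and edgeR moving the median of all genes by -0.11. At day 1 quantile normalization gave 5 higher and 33 lower and DESeq2 5 and 24, and at day 3 DESeq2 gave 4 and 18. Without library 3 of each line in 2iL, an omission that favours falls, the counts were 6 and 30, 9 and 23, and 7 and 22 at days 1, 3 and 5. Single WT libraries mattered as well: at day 1 9 members were higher and 6 lower without 2iL library 1, 2 and 9 without 2iL library 2, and 7 and 8 without day 1 library 4. Without 2iL library 2, 4 were higher and 8 lower at day 3, and 2 and 6 at day 5. From day 1 to day 3 WT had 4 higher and 1 lower (background 13.2% and 11.7%), and from day 3 to day 5 1 higher and 3 lower (13.2% and 7.1%).

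In the depleted lines the members fell over the same course. Against 2iL, 38 were lower and 4 higher at day 1 (median -0.15), 52 and 3 at day 3 (median -0.27), and 62 and 2 at day 5 (median -0.35, against 0.06 over all genes). The backgrounds were 26.8% lower and 25.7% higher at day 1, 26.1% and 29.1% at day 3, and 26% and 29.6% at day 5. By day 5, 32 of 45 large subunit core genes were lower (median -0.32), among them all 4 of the stalk, and 28 of 32 of the small subunit (median -0.39). Rpl12 had 1797, 1682, 1573 and 1461 CPM at day 5 and 2758, 2181 and 1871 CPM in 2iL in KO2. In KO3 it had 1314 and 1417 CPM at day 5 and 3111, 3202 and 2121 CPM in 2iL. All day 5 libraries lay below all 2iL libraries of their line, and the log2 change was -0.74 (SE 0.10, adjusted p = 1.05e-08, limma). Rpl32 (-0.75), Rpl13a (-0.64), Rps28 (-0.59), Rpl23a (-0.58), Rplp1 (-0.54), Rplp2 (-0.53) and Rpsa (-0.52) fell as well, while Rpl41 (0.32) and Rps19bp1 (0.38) rose. Without library 3 of each line in 2iL, 56, 62 and 69 were lower and 4, 3 and 2 higher at days 1, 3 and 5. Those libraries had the lowest shares of their lines, so more falls follow from the choice and are no independent check.

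Between the AloXR times few members were called within a line. From day 1 to day 3, 7 members were lower and none higher in KO2 (background 7.87% and 9.3%), and 1 lower and none higher in KO3 (2.96% and 5.53%). From day 3 to day 5 no member was called in KO2 (2.84% and 3.44%), with 1 lower and 5 higher at an unadjusted p under 0.05 in limma. In KO3 1 was lower and none higher over that step (0.807% and 0.301%). Other tools were not run on these steps.

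The courses of depleted and WT cells were set against each other as the difference of their changes from 2iL. At day 1 no member differed (limma, 1 higher and 6 lower at an unadjusted p under 0.05, and 0 called by edgeR and by DESeq2), over a background of 5.28% higher and 5.02% lower. At day 3, 12 members had a lower and 1 a higher change in the depleted lines than in WT (median -0.20, against -0.00 over all genes; 7.42% and 9.26%). At day 5, 31 members had a lower change and 2 a higher one (median -0.33, against -0.05; 11.8% and 8.82%). Rpl12 (-0.65, SE 0.16, adjusted p = 0.00235, limma), Rpl9 (-0.64), Rps2 (-0.62), Rpl39 (-0.55), Rpl10a (-0.55), Rplp1 (-0.51) and Rplp0 (-0.50) led at day 5. Rplp0 lay above WT in both lines in 2iL, and at day 5 it was above WT in KO2 (0.21) and below it in KO3 (-0.37). TMM scaling gave 17 calls at day 5, DESeq2 3 higher and 14 lower, and edgeR 14 calls. Single libraries weighed on these counts: at day 5 19 members were called without KO3 day 5 library 1 and 20 without WT 2iL library 3. At day 3 20 were called without KO2 2iL library 3 and 24 without KO3 2iL library 3. Day 3 calls fell to 8 without WT 2iL library 2, without WT 2iL library 3 or without WT day 3 library 3, and to 6 without WT day 3 library 2 or without KO3 day 3 library 1.

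Rpl39l, on chromosome 16, had the largest change of any member against WT in 2iL and at day 1. It encodes a paralog of the exit tunnel protein Rpl39 that is enriched in male germ cells. In 2iL it had 75.6, 45.5 and 33.1 CPM in KO2, 33.6, 23.6 and 23.5 CPM in KO3, and 149, 113 and 120.1 CPM in WT. At day 1 it had 25.6, 26.9, 34.7 and 35.4 CPM in KO2, 7.18, 7.22, 10.7 and 8.13 CPM in KO3, and 58.1, 64.3, 92.7 and 86.8 CPM in WT. No depleted library reached the WT range at either time, and the log2 changes were -1.79 (SE 0.23, adjusted p = 4.86e-08, limma) in 2iL and -2.14 at day 1. KO3 was below KO2 as well, by -0.85 in 2iL and -1.77 at day 1 on the log2 scale. By day 3 it had 1.599, 0.252, 0.6253 and 0.582 CPM in KO2, 2.26 and 4.38 CPM in KO3, and 0.406, 0.655, 0.711 and 0.724 CPM in WT, and by day 5 all libraries were at 0 to 0.683 CPM. Most of these late levels lie near what 3 reads allow. The exceptions were KO3 at day 3 (11 and 18 reads) and KO2 day 3 library 1 (7 reads). Beside these levels stand a call of 0.72 against WT at day 3 and differences of changes of 2.51 at day 3 and 2.03 at day 5. The parent gene Rpl39, on chromosome X, had 1022, 848 and 737 CPM in KO2, 1069.9, 1016 and 839 CPM in KO3, and 903, 901 and 827 CPM in WT in 2iL, with overlapping lines. At day 5 Rpl39 had 744, 820.5, 816 and 792 CPM in KO2, 551 and 566 CPM in KO3, and 878, 956, 937 and 976 CPM in WT (-0.49, SE 0.09, adjusted p = 2.76e-05, limma), with no overlap.

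**Figure D4:**
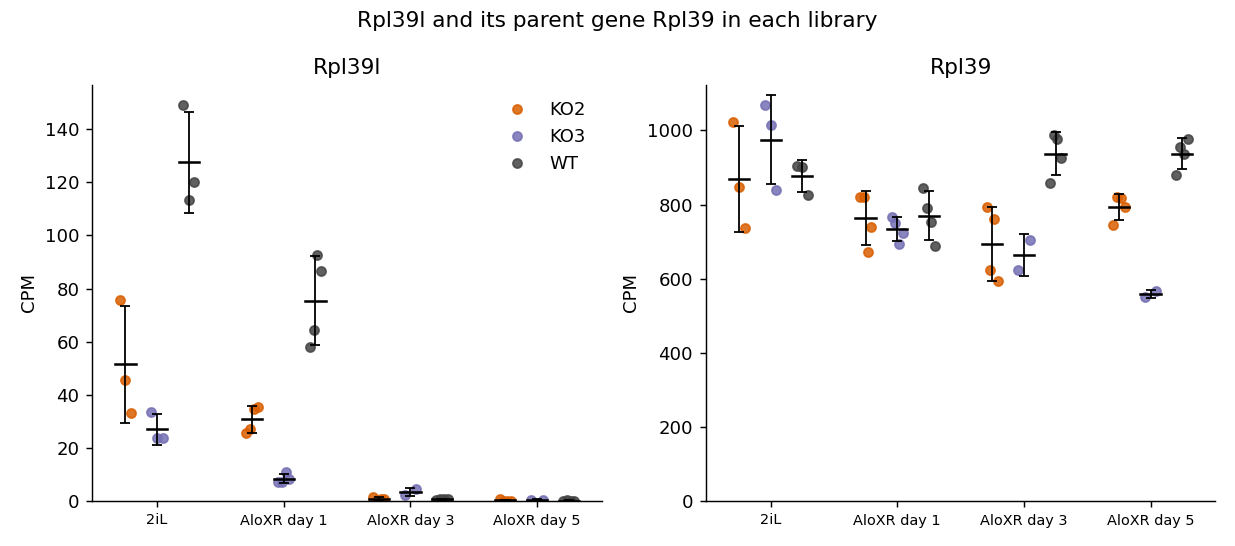
Level of Rpl39l (left) and of its parent gene Rpl39 (right) in CPM in each library (points) by line and time, with the mean (bar) and SD (whisker). Rpl39l is at 113 to 149 CPM in WT and 23.5 to 75.6 CPM in the depleted lines in 2iL and near 0 from day 3 on, while Rpl39 is lower than WT in the depleted lines at days 3 and 5.

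The other pairs of parent and relative moved less. Rpl22l1, an RNA-binding paralog of Rpl22, had 367, 370.2, 403 and 378 CPM in KO2, 225 and 242 CPM in KO3, and 436, 406, 488 and 485 CPM in WT at day 5 (-0.60, SE 0.08, adjusted p = 3.42e-07, limma). The groups did not overlap, and KO3 was the lowest. Rpl22 itself was lower (-0.38, SE 0.10, adjusted p = 0.002, limma), with 1867, 1670, 1642 and 1571 CPM in KO2, 1450 and 1534 CPM in KO3, and 1906, 1936, 2172 and 2247 CPM in WT. Rpl36al was at 10.6 to 41.4 CPM at day 5 and was called in KO3 alone (-1.02), while its parent Rpl36a was not called (-0.07, adjusted p = 0.595, limma). Rps27 fell by 0.40 at day 5 and Rps27l did not pass the test (-0.05, adjusted p = 0.756, limma), with KO2 and KO3 on opposite sides of WT. The Rps27 retrogene Rps27rt (-0.52, adjusted p = 0.0759), the assembly-linked Rpl7l1 (0.18, adjusted p = 0.126) and Rpl3l (0.20, adjusted p = 0.549) were not called by limma, while their parents Rpl3 (-0.44) and Rpl7 (-0.40) were lower. Rpl3l averaged 0.677 CPM over all libraries, within the counting floor of many.

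Other genes for making and using ribosomes did not share one direction with the members at day 5. The background for the counts against WT at day 5 was 14% of all genes higher and 17.4% lower. Among 16 translation factors whose mRNAs carry a TOP tract, 8 were lower and 2 higher than WT (median -0.30, against 0.00 over all genes), and TMM scaling gave 4 lower and 2 higher. Eef1a1 (-0.53), which delivers aminoacyl-tRNA, Tpt1 (-0.49) and Eef1g (-0.39) were the most lowered. Tpt1 had 255, 238, 238.2 and 227 CPM in KO2, 417 and 499.8 CPM in KO3, and 461, 488, 455 and 462 CPM in WT. Its fall was therefore that of KO2, while KO3 reached the WT range. In 2iL Tpt1 was likewise low in KO2, at 243.6, 186 and 178 CPM against 321, 319 and 300.4 CPM in WT. The part of the chromosome shifts described above in the levels of Tpt1 and the other list genes is not given here. Rack1, a small subunit protein outside the symbol rule, was lower (-0.35, SE 0.10, adjusted p = 0.0056, limma). By contrast, 22 of 33 genes for ribosomal RNA processing and small nucleolar particles were higher and 1 lower (median 0.53), led by Bysl (1.12), Utp4 (0.97) and Utp20 (0.87) of the early small subunit precursor. The KO2 libraries were not even: Dkc1 had 513, 731, 941 and 993 CPM there and 504 to 549 CPM in WT. Nop58 had 738, 1005, 1262 and 1357 CPM in KO2 and 734 to 810 CPM in WT. Nop56, in turn, lay above WT in every KO2 library (288 to 348 against 197 to 208 CPM). Of 33 assembly factors of the large subunit 19 were higher and 1 lower (median 0.28), led by the rRNA methyltransferase Nop2 (1.34), the helicase Ddx21 (1.13) and Mak16 (1.03). Of 19 genes of RNA polymerase I and its factors 9 were higher and 1 lower (median 0.31), with Taf1a (1.45), Taf1c (1.08) and Cd3eap (0.95) in front. Among mTORC1 and Myc regulators 6 of 18 were higher and 3 lower (median -0.04), with Myc at 1.93 (SE 0.40, adjusted p = 0.00036, limma), Mycn at 1.251 and Maf1, a repressor of RNA polymerase III, at -0.91. Myc was low, with 4.55, 4.73, 7.79 and 6.91 CPM in KO2, 20.3 and 13.8 CPM in KO3, and 1.09, 0.991, 5.68 and 1.53 CPM in WT. WT library 3 lay within the KO2 range for Myc, and KO3 stood highest. Mycn had 59.2, 98.4, 175 and 194 CPM in KO2, 127 and 113 CPM in KO3, and 44.5 to 54.5 CPM in WT.

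At earlier times the processing and assembly genes lay closer to WT. The background against WT was 11.2% of all genes higher and 10.4% lower in 2iL. It was 9.75% and 10.1% at day 1, and 14.6% and 11.2% at day 3. The processing genes had 5 higher and none lower in 2iL, none higher and 2 lower at day 1, and 2 higher and 3 lower at day 3 against WT, and the large subunit assembly factors 4 higher and 1 lower in 2iL, 0 and 3 at day 1, and 5 and 2 at day 3. Against 2iL, processing genes rose in WT at day 1 (25 higher, none lower) and day 3 (21 and 1), and at day 5 stood at 4 higher and 8 lower. The backgrounds were 23.5% higher and 22.7% lower at day 1, 26.8% and 24.4% at day 3, and 28% and 20.2% at day 5. In the depleted lines the processing genes stood at 23 higher and 1 lower at day 1, 19 and 1 at day 3, and 18 and 3 at day 5. There the backgrounds were 25.7% higher and 26.8% lower, 29.1% and 26.1%, and 29.6% and 26%. The difference of changes at day 5 called 11 processing genes higher and none lower, and 8 assembly factors higher and 1 lower. Of all genes, 8.82% were higher and 11.8% lower in that test. Between the lines at day 5, KO3 had 1 processing gene higher and 5 lower than KO2, over 10.7% higher and 7.26% lower. Of 77 mitochondrial ribosomal protein genes 8 were higher and 12 lower than WT at day 5 (median -0.03), over 14% and 17.4% of all genes. TMM scaling turned this balance to 14 and 7. KO3 had 27 of them lower and none higher than KO2 (median -0.29), over 7.26% and 10.7%. Among 10 regulators of ribosomal protein transcription none was called at day 5.

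**Figure D5:**
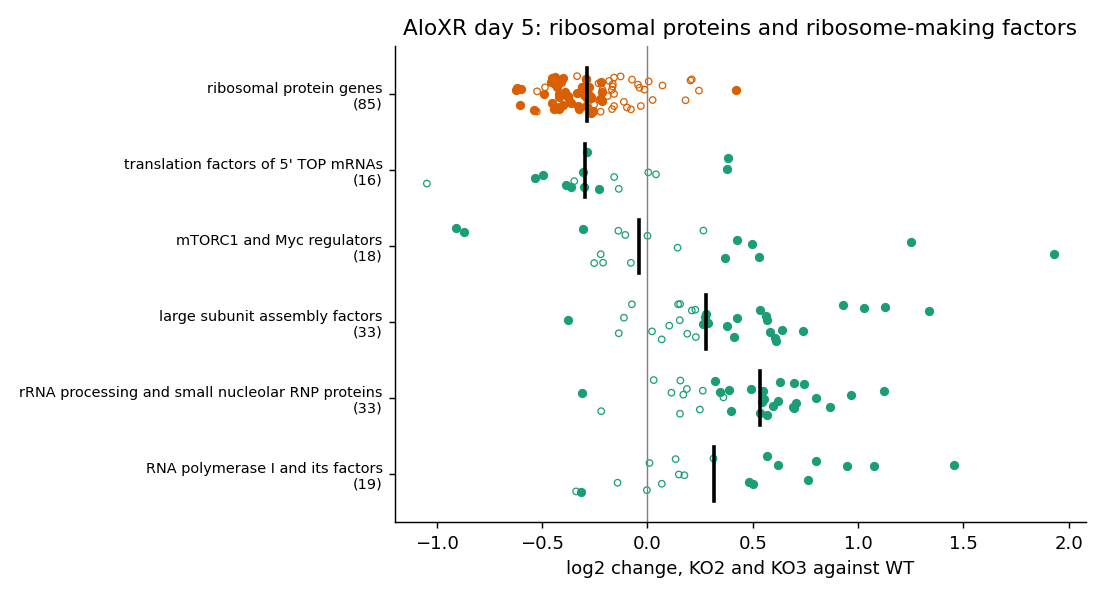
Log2 change at AloXR day 5, KO2 and KO3 against WT (horizontal axis), of each ribosomal protein gene and of the genes of 5 related lists (rows, with the number tested); filled points are called at an adjusted p under 0.05, open points are not, and the black bar is the median. Ribosomal protein genes (median -0.29) and TOP translation factors (median -0.30) lie left of 0, and processing (0.53), assembly (0.28) and RNA polymerase I genes (0.31) lie right of it.

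Summed levels of markers of other cell types differed between the lines. For the counts of single markers against WT, the background was 14% higher and 17.4% lower at day 5. At day 3 it was 14.6% and 11.2%. The 9 primitive endoderm markers summed to 45.9 to 65.2 CPM in KO2, 354 to 435 CPM in KO3 and 37.6 to 43.2 CPM in WT at day 5. Of the 9, 3 averaged at least 1 CPM in KO2, 8 in KO3 and 2 in WT. With KO2 and KO3 averaged, 6 of the 8 that could be tested were higher than in WT and none lower. At day 1 they summed to 31.4 to 41.2 CPM in KO2, 79.0 to 134 CPM in KO3 and 12.4 to 17.7 CPM in WT. At day 3 they summed to 58.4 to 70.0 CPM in KO2, 260 to 303 CPM in KO3 and 31.3 to 41.03 CPM in WT. The trophoblast markers summed to 213 to 252 CPM in KO2, 383 to 407 CPM in KO3 and 248 to 292 CPM in WT at day 5, with 3 of 7 higher and none lower, and KO2 overlapped WT at its low end. At day 3 the trophoblast markers summed to 309 to 521 CPM in KO2, 422 to 471 CPM in KO3 and 118 to 143 CPM in WT, with 6 of 7 higher and none lower. Fibroblast markers summed at day 3 to 79.3 to 128 CPM in KO2, 42.1 to 47.3 CPM in KO3 and 32.3 to 38.9 CPM in WT, with 4 of 8 higher and 1 lower. At day 5 fibroblast markers summed to 58.1 to 71.2 CPM in KO2, 51.0 to 52.2 CPM in KO3 and 54.7 to 64.4 CPM in WT, and haematopoietic markers to 5.92 to 9.92 CPM in KO2, 6.57 to 13.04 CPM in KO3 and 6.93 to 10.04 CPM in WT. ES cell markers at day 5 summed to 564 to 773 CPM in KO2, 651 to 657 CPM in KO3 and 566 to 651 CPM in WT. The part of these markers in the result was not tested.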

How the data were processed

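Messenger RNA of 41 libraries was read as 3′ tags (QuantSeq kit, per the labels' protocols). The submitters' processing notes name GRCm38, STAR 2.7.6a for alignment and, from Subread, featureCounts 2.0.1 for counting, with settings for strand and multiply matching reads not given in the sources used here. The authors deposited CPM for 55487 genes, each column summing to 1000000, and whole reads could be recovered for 100% of 766190 values above 0 (tolerance 0.01 reads). Symbols came from GENCODE M21 (55227 genes matched, 260 did not).

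Values were analysed as log2(CPM + 1) with limma 3.58.1 in R 4.3.3 for genes of at least 1 CPM in at least 3 libraries, fitting a mean for each of the 12 groups (trend and robust variances, residual degrees of freedom 29), in 17 comparisons. Fold changes on this scale understate the change of low genes. Calls were made at an adjusted p under 0.05 (Benjamini-Hochberg) at any size of change, and, where KO2 and KO3 were averaged, only if both lay on the same side. The fit was tested on simulated data. Alternatives were edgeR 4.0.16 and DESeq2 1.42.0 on the recovered counts, TMM scaling, quantile normalization, scaling to reads outside the members, other filters and pseudocounts, a fold of at least 1.5, each line alone and each library left out; adding pseudogene rows and centring each chromosome were chosen after seeing the data. Tables were made with Python 3.11.15 and pandas 2.3.3.

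Named members are the 5 largest rises and falls of each comparison with a mean of at least 5 CPM, Rplp0, Rpsa, Rps6, Rpl10 and Fau, paralogs with their parents, and members past 1.5-fold; from other lists, up to 3 called genes each. Further members named were chosen after their values were seen. The members and lists were chosen with earlier results of these data known. Lists not described in the report were snoRNA host genes (3 higher and 2 lower of 10 at day 5 against WT), chaperones and importers (2 and 2 of 14), and elongation and termination factors (5 and 2 of 17). Of all genes, 14% were higher and 17.4% lower in that comparison. Some members are counted but not reported here by name.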

Additional observations from a re-analysis of the deposited data

Results flagged for a closer look

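A library stood far from the others of its group in 7 of 168 groups of 4 libraries examined, where chance alone marks about 1 in 20 groups. The share of ribosomal protein reads was 11.2% in WT day 5 library 1 and 11.8% to 11.9% in the other 3. Rpl39l was at 0.683 CPM in KO2 day 5 library 1 and at 0.198 CPM in WT day 5 library 2, with the other 3 libraries of each group at 0. KO2 day 1 library 4 was high for Rps12 (8405 CPM, the others 6368 to 6687) and for Rpl22 (2401 CPM, the others 1647 to 1763). At day 3 KO2 library 1 was low for Rplp1 (2047 CPM, the others 2465 to 2534) and KO2 library 4 for Rpl12 (1368 CPM, the others 1674 to 1705).

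The change from 2iL differed between the depleted lines and WT by a test of the difference itself (limma, adjusted over all genes). At day 3, 1 member was higher and 12 lower in this test, with Rpl36al at -0.85 (adjusted p = 0.0486) and Rpl39l at 2.51 (adjusted p = 6.14e-08). At day 5, 2 members were higher and 31 lower, with Rpl12 at -0.65 (adjusted p = 0.00235), Rpl9 at -0.64 (adjusted p = 0.00032), Rps2 at -0.62 (adjusted p = 0.00037), Rps19bp1 at 0.76 (adjusted p = 0.00022) and Rpl39l at 2.03 (adjusted p = 4.31e-06). Rpl39l was at 0 to 4.38 CPM in all lines at days 3 and 5.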

How the results depend on the processing

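Counts here are of members called in either direction. Apart from each line alone and the 1.5-fold rule at day 5 against WT, the share of all genes called under these settings is not given. The counts therefore show how the member calls shift and have no background beside them. Against WT, DESeq2 and TMM scaling each called 33 members at day 5, edgeR 32 at day 5 and 3 at day 1, KO2 alone 21 at day 5, KO3 alone 15 at day 1, no filter 3 at day 1, and leaving out 2iL library 3 of each line 12 at day 1. For the difference of changes, DESeq2 and TMM scaling called 17 and edgeR 14 at day 5, centring each chromosome 6 at day 3 and 19 at day 5, quantile normalization 2 at day 1, and leaving out 2iL library 3 of each line 1 at day 1 and 20 at day 3. Between KO3 and KO2, centring called 2 in 2iL and 3 at day 3, no filter 3 in 2iL, quantile normalization 8 in 2iL, and leaving out 2iL library 3 of each line 8 in 2iL, and the same omission gave 32 for WT day 3 against 2iL. With a fold of at least 1.5 as well, the counts were 1, 1, 3 and 4 against WT in 2iL and at days 1, 3 and 5, 4, 4 and 3 in the WT course, 4, 4 and 5 in the depleted course, 2 and 5 for the difference at days 3 and 5, and 2, 3, 1 and 6 between KO3 and KO2. Leaving out each library in turn gave 3 to 8, 3 to 9, 19 to 29 and 36 to 57 against WT; 29 to 50, 42 to 61 and 48 to 71 in the depleted course; 11 to 33, 12 to 24 and 8 to 26 in the WT course; 0 to 1, 6 to 24 and 19 to 45 for the difference; and 2 to 8, 14 to 31, 0 to 13 and 11 to 44 between KO3 and KO2. The cause of these shifts was not tested, except that a fold minimum can only remove calls. Of 276 results on single members, 14450 alternatives gave 13563 with the same direction and call, 883 with the call lost and 4 reversed: Rpl10 in WT at day 1 with pseudogene rows added (-0.15), Rps26 at day 5 against 2iL under quantile normalization in WT (0.091) and in the depleted lines (0.021), and Rpl13 between KO3 and KO2 at day 1 after centring (-0.0495). No paired analysis was possible because the labels give the groups no shared replicate numbers. Depth limits Rpl3l, Rpl29 and late Rpl39l, which lie near 3 reads apart from Rpl39l in KO3 at day 3 (11 and 18 reads).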
